A study of Caenorhabditis elegans with 60 samples.

Results

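The 60 genes described here encode proteins of the cytoplasmic ribosome of Caenorhabditis elegans, 34 of the large subunit (rpl) and 26 of the small subunit (rps). They were chosen by gene name, from a list of sequence names, out of 22844 features in the deposited gonad mRNA table, by a rule that uses no measured value, although earlier results of these data were known when the list was drawn up. All 60 sequence names were listed in the mRNA table and all 60 matched a RefSeq gene, whose symbols are used below. The small RNA tables carry some older symbols: rpl-10L is listed there as rpl-10, rps-3A as rps-1, rpl-23A.2 as rpl-25.2 and rpsa-1 as rps-0. Of the 60 genes, 15 were also listed as 22G-RNA loci, 14 of them in the CSR-1 class and 1, rpl-11.2, in the class of mutator-dependent WAGO loci. The other 45 had no row in either class and enter none of the 22G-RNA comparisons as members.

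Each ribosome holds a single copy of most of these proteins, and their messages are among the most abundant in any growing cell. 22G-RNAs are short antisense RNAs made on target messages by RNA-dependent RNA polymerases. CSR-1 binds those made on the messages of expressed germline genes, while the WAGO Argonautes, among them WAGO-1 and the nuclear HRDE-1, bind those made on genes and transposons that are silenced. HENN-1 is the methyltransferase that adds a methyl group to the last nucleotide of piRNAs and of one class of primary siRNAs; sodium periodate attacks small RNAs that lack it.

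The series holds 60 libraries, of which 34 were used. Gonads were dissected from gravid adults grown at 20 C for 68 to 70 h, from N2 wild type animals and from henn-1(pk2295) III mutants, with 3 mRNA and 3 small RNA libraries for each genotype. Whole N2 animals and whole rde-1(ne219) V mutants, which lack a working primary siRNA Argonaute, each gave 3 untreated and 3 periodate-oxidized small RNA libraries. The untreated animals are labelled L4 larvae of 52 h throughout; the oxidized ones are labelled gravid adults of 68 h in one field and L4 larvae in another, so that stage and oxidation cannot be told apart if the first field is right. Immunoprecipitates and their inputs came from gravid adults of 68 h, 1 library each, from a FLAG::hrde-1 II strain and from a strain with GFP and 3xFLAG on wago-1 that also carries mut-16::mCherry. Single N2 and henn-1(pk2295) III libraries of embryos, L4 larvae and gravid adults complete the set. Nothing in the labels ties replicates to separate cultures, and p-values therefore cover the spread between libraries, which may be technical.

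Values are the authors' normalised signal, in which read counts were scaled between libraries and not by gene length, so differences in level between genes also carry their lengths. The mRNA libraries summed to 15318171 to 16159369 units of normalised signal; their read depth was not recovered. The small RNA values were whole multiples of a step in each library, which gave back 4215264 to 8745475 reads per gonad library and 6311071 to 13613629 per oxidation library. The targeted gene, henn-1, had a mean mRNA signal of 2244 ± 53.3 (SD, n = 3) in wild type gonads and 237 ± 10.6 (SD, n = 3) in the mutant's, with no overlap. In the mRNA libraries all 9 germline and all 9 oocyte marker genes were above the filter, the germline markers summing to 54369 to 58816 in wild type and 49672 to 50967 in henn-1 libraries and the oocyte markers to 145770 to 150108 and 124783 to 130954. The 6 intestine markers, which include vitellogenin genes, summed to 75.1 to 360 and 103 to 323. For the gonad small RNA libraries the labels conflict, since title, source and one line of the description name dissected gonads while another line of it speaks of frozen whole animals. They are called gonads here, and each 22G-RNA value and 22G-RNA over mRNA ratio given for gonads rests on that. Library 2 of the wild type and library 3 of henn-1 held the highest summed sperm marker signal of their groups, 247 and 446, against 102 to 166 in the other 4 libraries.

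In wild type gonads, the 60 mRNAs made up 12.3%, 11.7% and 11.7% of the summed mRNA signal, and in henn-1 gonads 12.8%, 13.2% and 12.0%. The henn-1 mean was the higher by 0.745 percentage points, but the groups overlapped (exact permutation test, two-sided p = 0.2, where 0.1 is the smallest p that 3 against 3 libraries allow). All 60 genes were above the filter, a mean signal of 10. Of them, 2 were higher and 4 lower in henn-1 gonads at a limma adjusted p under 0.05, 3.33% and 6.67% of the genes, beside 7.44% of all 8750 tested mRNAs called higher and 12.4% called lower. The median log2 difference, henn-1 minus wild type, was 0.07 over the 60 genes and 0.02 over all tested mRNAs. Of the 60 genes, which share their libraries and are not separate observations, 41 were above 0 and 19 below. The quartiles over all tested mRNAs were -0.11 and 0.19. In 14 genes the groups did not overlap, 4 higher and 10 lower. Of all tested mRNAs, 17.9% were higher without overlap and 21.3% lower. Both genes called higher encode large subunit proteins; those called lower were 2 of each subunit.

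The counts turned on single libraries. The median of the 60 genes against the wild type mean lay at 0.09 and 0.14 in henn-1 libraries 1 and 2 and at -0.06 in library 3. That library had the highest summed sperm and muscle marker signal of the henn-1 group and the lowest summed mRNA signal. The part of these in its lower median was not tested. Omitting henn-1 library 3 left 21 genes called higher and 3 lower, beside 7.94% of all tested mRNAs called higher and 11.5% lower in that fit. Omitting wild type library 3 left 1 higher and 0 lower (2.97% and 4.91% of all mRNAs). Omitting wild type library 2 left 1 and 1 (3.37% and 6.09%), as did omitting henn-1 library 2 (2.57% and 5.15%). With wild type library 1 omitted the counts were 4 and 4 (7.07% and 12.6%), and with both sperm-rich libraries omitted they were 7 and 1 (4.54% and 6.85%). With each library scaled to its total, the split turned from 2 higher and 4 lower to 12 higher and 3 lower, and that of all tested mRNAs turned with it, from 651 higher and 1082 lower to 946 and 675.

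**Figure D1:**
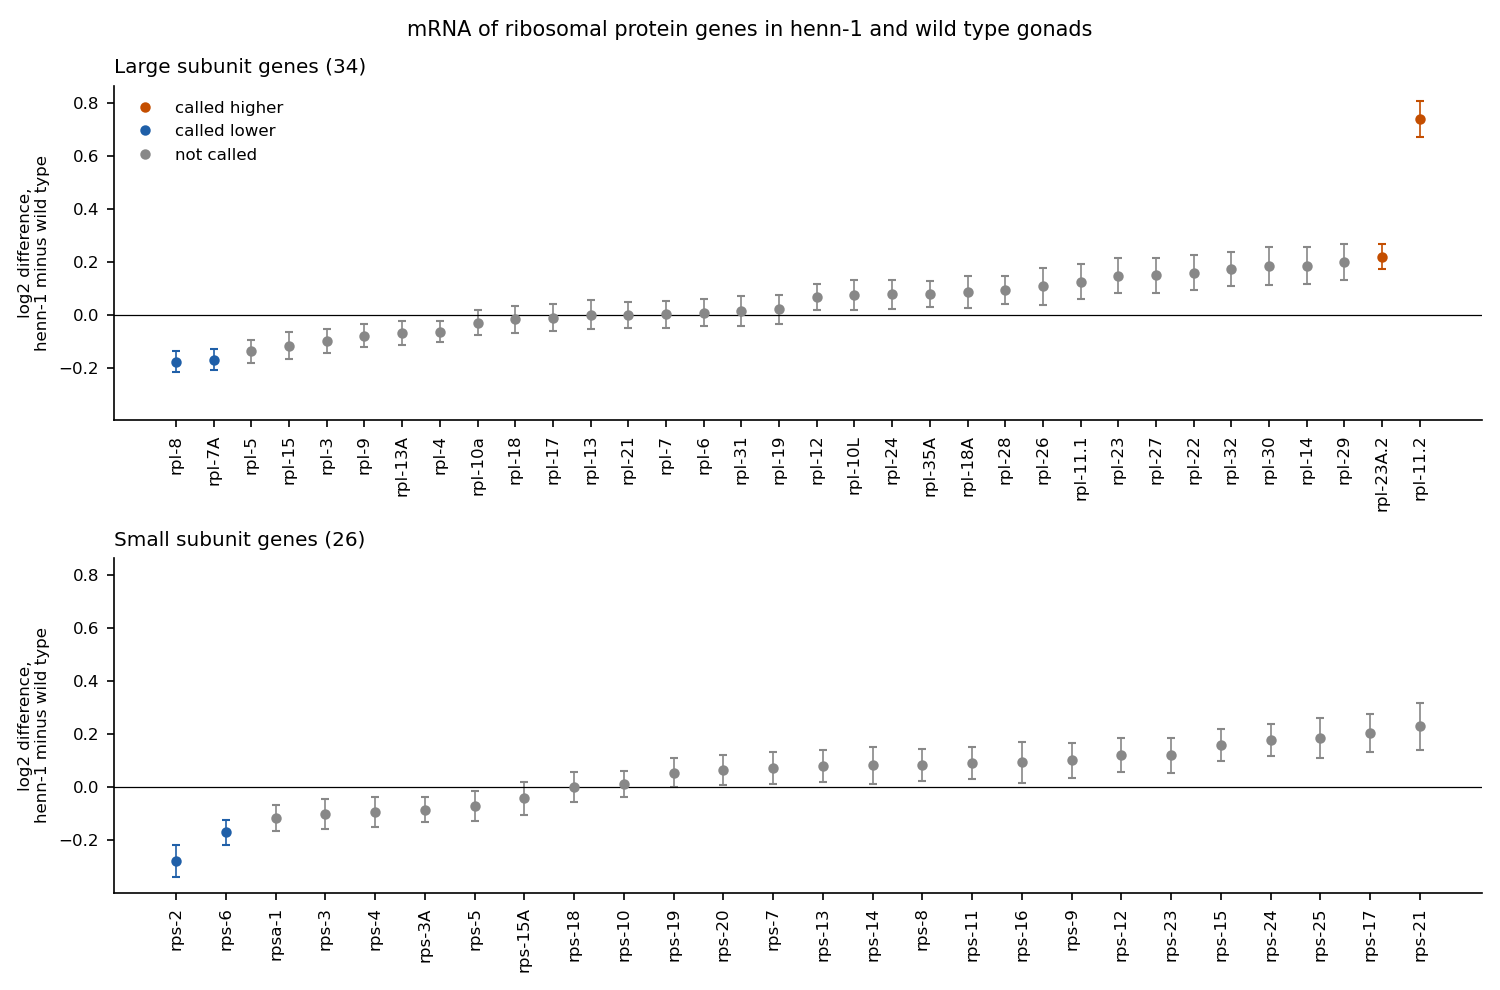
Fitted log2 difference in mRNA signal, henn-1 minus wild type gonads, for each of the 60 genes, large subunit above and small subunit below, ordered by value. Points are limma estimates over 3 libraries a group and bars are standard errors. All but rpl-11.2 lie between -0.28 and 0.23, and rpl-11.2 stands at 0.74.

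The largest difference belonged to rpl-11.2 (F07D10.1), a second gene for ribosomal protein L11, which in yeast and mammals joins the 5S RNA of the large subunit. Its mRNA signal was 248, 268 and 255 in wild type gonads and 423, 448 and 416 in mutant gonads. Every henn-1 value was above every wild type value, with means of 257 ± 9.99 and 429 ± 16.9 (SD, n = 3 each). The log2 difference was 0.74 (SE 0.07), a 1.67-fold rise with a limma adjusted p of 0.000173, and it stayed between 0.71 and 0.79 under the 12 other settings tried. Its partner rpl-11.1 (T22F3.4), which supplies nearly all signal of the pair, had 89859, 85158 and 88655 in wild type and 95619, 103371 and 89150 in henn-1 libraries. These groups overlapped and the log2 difference of rpl-11.1, 0.13 (SE 0.07), did not pass the test (limma adjusted p = 0.197). Within a library, rpl-11.1 exceeded rpl-11.2 by 362, 318 and 348-fold in wild type and by 226, 231 and 214-fold in henn-1 gonads. All 3 henn-1 ratios were below all 3 wild type ratios, a log2 difference of -0.61 (exact permutation test, two-sided p = 0.1, the smallest possible). RSEM divides reads that match both copies, so the part of the rpl-11.2 signal that comes from rpl-11.1 reads is uncertain.

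Muscle markers, like rpl-11.2 mRNA, were higher in henn-1 than in wild type gonads. Of 12 muscle marker genes, 11 were tested and 9 were called higher in henn-1 gonads, and none of the 12 was at 0 in every library. Their summed signal was 1418, 1193 and 1287 in wild type libraries and 2071, 1937 and 2783 in henn-1 libraries. Within each genotype the order of the libraries was the reverse of that in rpl-11.2 mRNA. Of 8 somatic gonad markers, 5 were tested and 2 were higher, with sums of 2399 to 2474 and 2594 to 2807. The part of these cells in the rpl-11.2 result was not tested. In such bulk samples a change in the number of cells of a type and a change in RNA per cell cannot be told apart.

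The second gene that rose was rpl-23A.2 (F52B5.6), for the large subunit protein that lies at the exit of the peptide tunnel. Its mRNA signal was 11315, 10342 and 10723 in wild type and 12559, 13081 and 12055 in henn-1 libraries. The groups did not overlap and the log2 difference was 0.22 (SE 0.05, limma adjusted p = 0.0127). The call was lost in 3 of the 6 fits that omitted a library, with limma adjusted p up to 0.0569. Its paralog rpl-23A.1, not one of the 60, was close to the filter, at 13.1 ± 6.61 against 17.6 ± 2.05 (SD, n = 3 each), and was not called (limma adjusted p = 0.431).

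The genes that fell did so by small amounts. The largest fall was that of rps-2 (C49H3.11), whose protein lies near the messenger channel of the small subunit. It had 37374, 41046 and 40865 in wild type and 30377, 34330 and 33671 in henn-1 libraries. Its log2 difference was -0.28 (SE 0.06, limma adjusted p = 0.0131). The mRNA of rpl-8, whose protein sits close to the site of peptide bond formation, went from 13845 ± 247 to 12262 ± 323 (SD, n = 3 each), a log2 difference of -0.18 (limma adjusted p = 0.0134). That of rpl-7A went from 15474 ± 365 to 13768 ± 347, a log2 difference of -0.17 (limma adjusted p = 0.0173). The mRNA of rps-6, the S6 kinase substrate in mammals, went from 14997 ± 219 to 13345 ± 754, a log2 difference of -0.17 (limma adjusted p = 0.0316). No wild type library overlapped a henn-1 library in any of these 4 genes. Each nevertheless lost its call in some of the 6 fits that omitted a library. The rps-6 call held in only 1 of these fits, the one without henn-1 library 1. The rps-2 call was lost without wild type library 2 or 3. The rpl-8 call was lost without wild type library 3 or henn-1 library 2. The rpl-7A call was lost in each of those 3 fits. The limma adjusted p over the 6 fits rose to 0.059 for rps-2, 0.0545 for rpl-8, 0.0734 for rpl-7A and 0.106 for rps-6. With both sperm-rich libraries omitted, only rps-2 of the 4 kept its call. Germline and oocyte markers moved the same way, with 5 of 9 germline genes called lower and 0 higher and 4 of 9 oocyte genes called lower and 1 higher; their part in these falls was not tested.

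Among the remaining 54 genes, log2 differences ran from -0.14 (rpl-5, limma adjusted p = 0.0535) to 0.23 (rps-21, limma adjusted p = 0.0917). The small subunit gene rps-21 had 21620, 18565 and 19597 in wild type and 24131, 26039 and 20199 in henn-1 libraries, with henn-1 library 3 inside the wild type range. The same library was the lowest of the henn-1 group in rps-17, rpl-29, rpl-14, rps-25 and rpl-30, whose log2 differences lay between 0.19 and 0.20 and did not pass the test (limma adjusted p 0.0672 to 0.103). By subunit, the median log2 difference was 0.04 over the 34 large and 0.08 over the 26 small subunit genes.

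Other genes of the translation machinery were counted in the same fit. Of the 8 genes for stalk and fused ribosomal proteins, tested in full, none passed at an adjusted p under 0.05 by limma, 3 had an unadjusted p under 0.05, and the median log2 difference was -0.04. The 16 tested of 19 other cytoplasmic ribosomal protein genes, which share rps-27A with that list, also gave none by limma, with 5 at an unadjusted p under 0.05 and a median of 0.15. Of 25 initiation factor genes tested, 10 were lower and none higher, with a median of -0.11; ifg-1, the scaffold eIF4G, went from 3341 ± 153 to 2661 ± 207 (SD, n = 3 each; limma adjusted p = 0.00636). Of 8 elongation factor genes, 2 were lower and 1 higher, the translocase eef-2 being lower with a log2 difference of -0.22 (limma adjusted p = 0.0214). Of 25 genes for the nucleolus and ribosome assembly, 4 were lower and 1 higher, with a median of -0.10. Of 70 mitochondrial ribosomal protein genes, 20 were higher and 3 lower, with a median of 0.11; mrpl-15 went from 2379 ± 28.4 to 2752 ± 92.3 (SD, n = 3 each; limma adjusted p = 0.00789). None of these counts was set against that of the 60 genes by a test.

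The 3 mRNAs outside the 60 whose signal followed the sum of the 60 most closely over the 6 gonad libraries were T12D8.10, cox-17 and dpm-3, with Pearson r of log2 signal of 0.995, 0.991 and 0.989. They were picked as the highest of all tested mRNAs, and the 6 libraries share their normalisation.

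The 22G-RNAs of these genes were few beside their messages. Of the 60 genes, 14 (23.3%) had a CSR-1 class locus, beside 41.2% of the other 8690 tested mRNAs. Of 464 other mRNAs with a wild type signal at or above the lowest of the 60 other than rpl-11.2, 83.0% had one. In wild type gonads the 14 had a median of 5.32 units of 22G-RNA signal per 1000 units of mRNA signal of the same gene, with a range of 2.72 to 20.6. The other 3508 CSR-1 class genes had a median of 160 and an interquartile range of 81.6 to 323. The median 22G-RNA signal was 241 over the 14 and 292 over those others, while the median mRNA signal was 39527 and 1820. The gap in the ratio thus lay mostly in the mRNA signal. Both signals cover the same gene and neither was divided by its length; how each scales with length was not tested. The lowest ratios were those of rps-7 (200 over 73475), rps-3A (92.1 over 31883) and rpl-30 (56.5 over 14609). The highest were those of rpl-9 (255 over 12348), rps-2 (711 over 39762) and rpl-5 (440 over 26765). Even rpl-9 lay above only 1.74% of the other CSR-1 class genes.

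The ratio of rpl-11.2 was of another order, at 662 units of 22G-RNA per 1000 units of mRNA in wild type and 277 in mutant gonads. Among 1218 WAGO loci with both signals the medians were 2958 and 1858. Across the 15 genes, wild type mRNA and 22G-RNA signal as deposited had a Spearman rho of 0.50 and a Pearson r of 0.31 on the log2 scale, and across the 14 CSR-1 class genes 0.45 and 0.53. The 15 points come from the same libraries and share gene length, which was not corrected for.

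henn-1 and wild type gonads were then compared in these 22G-RNAs. Of the 15 loci, all above the filter, none was called higher and 1, rpl-11.2, was called lower by limma at an adjusted p under 0.05, beside 42% of all 9456 tested small RNA features called higher and 15.9% called lower. Most of the 3976 features called higher were piRNAs, 3354 of them. At an unadjusted p under 0.05, 2 loci were higher and 1 lower, and edgeR on the recovered reads gave 0 higher and 8 lower, beside 37.5% of all features called higher and 29.3% lower and 28.6% of the CSR-1 class called lower. Among the 3542 tested CSR-1 class loci, limma called 317 higher and 179 lower. The median log2 difference, henn-1 minus wild type, was -0.05 over the 15, 0.04 over the CSR-1 class and 0.14 over all tested features. These medians depend on the scaling: with TMM factors the 3 values were -0.30, -0.21 and -0.12, and 10 of the 15 loci were called lower, beside 37.3% of all features and 46.4% of the CSR-1 class.

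At rpl-11.2, 22G-RNA signal was 195, 158 and 158 in wild type and 92.1, 118 and 147 in henn-1 gonads. The groups did not overlap, with means of 170 ± 21.3 and 119 ± 27.6 (SD, n = 3 each). The log2 difference was -0.53 (SE 0.17), a limma adjusted p of 0.022. The call was lost when the first library of either genotype was omitted, with log2 differences between -0.69 and -0.36 and adjusted p between 0.00527 and 0.0814 over the 6 fits that left out 1 library. Of the 15 genes, rpl-11.2 was the one called in both the mRNA and the 22G-RNA comparison, higher in mRNA and lower in 22G-RNAs. Of 2387 tested WAGO loci, 1319 were called lower and 282 higher, so a lower call was the more frequent one in its class. A muscle marker and a sperm marker listed among the small RNA loci, lev-11 and spe-41, were also lower, with log2 differences of -1.87 (limma adjusted p = 7.09e-07) and -1.71 (limma adjusted p = 6.33e-07). Their mRNAs were not called, with log2 differences of 0.46 and 0.30 (limma adjusted p = 0.0612 and 0.201). Of 7 oocyte marker loci tested, 3 were called lower and 0 higher. None of 8 germline, 2 somatic gonad and 1 neuron marker loci was called.

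**Figure D2:**
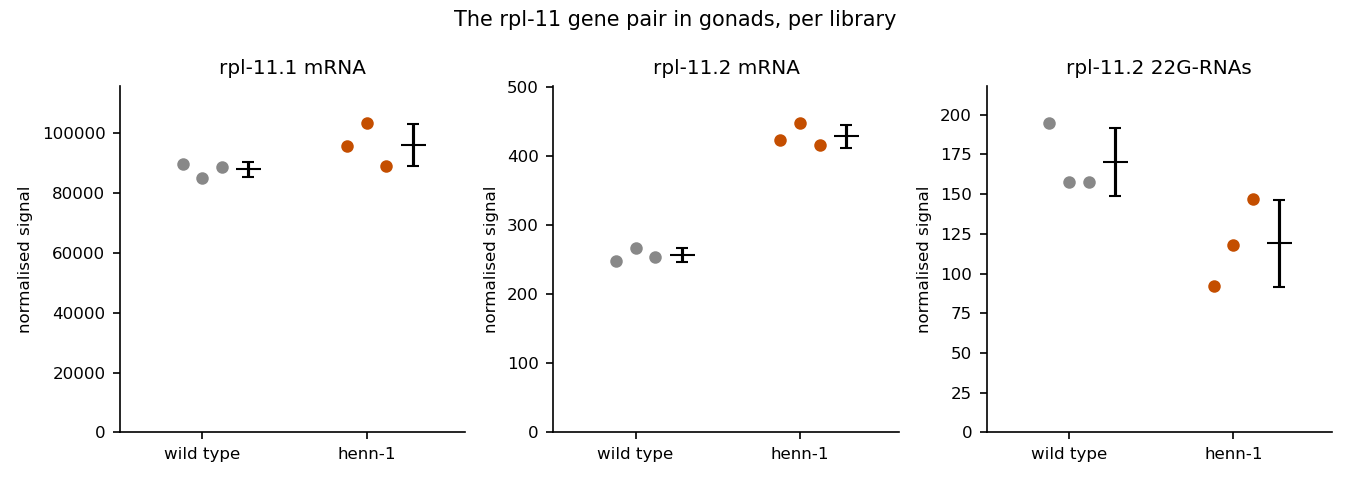
Normalised signal of rpl-11.1 mRNA, rpl-11.2 mRNA and rpl-11.2 22G-RNAs in each gonad library, wild type in grey and henn-1 in orange, with the mean and SD of 3 libraries in black and all axes starting at 0. The rpl-11.2 mRNA values are separate between genotypes (248 to 268 and 416 to 448), its 22G-RNA values are 158 to 195 and 92.1 to 147, and rpl-11.1 overlaps.

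The 14 CSR-1 class loci did not pass in either direction. The 3 with the largest positive differences were rps-16, rps-3 and rpl-10L. The rps-16 locus had 243, 210 and 227 in wild type and 254, 271 and 256 in henn-1 libraries (log2 difference 0.20, limma adjusted p = 0.0704). The rps-3 locus, whose protein lines the messenger entry of the small subunit, had 304, 272 and 298 against 343, 315 and 319 (0.16, limma adjusted p = 0.11). The rpl-10L locus, whose protein is needed for joining of the subunits in yeast, had 425, 430 and 449 against 489, 481 and 475 (0.15, limma adjusted p = 0.069). In these 3 loci the groups did not overlap, and the same held, in the other direction, for rps-23, rpl-30 and rpl-11.2. Over all tested features 46.2% were higher without overlap and 20.1% lower, and over the CSR-1 class 19.5% and 10.2%. The rps-23 locus had 274, 289 and 324 in wild type and 267, 224 and 270 in henn-1 gonads (-0.22, limma adjusted p = 0.0921), and rpl-30 had 62.3, 54.4 and 52.9 against 44.6, 51.6 and 51.9 (-0.19, limma adjusted p = 0.357). The rps-2 locus went from 711 ± 59.8 to 681 ± 33.6 (SD, n = 3 each) while its mRNA was called lower; this 22G-RNA difference was not called (limma adjusted p = 0.55). Of 3 other cytoplasmic ribosomal protein loci none passed by limma, with none at an unadjusted p under 0.05, and of 56 mitochondrial ribosomal protein loci 1 was higher and 1 lower. Of 24 nucleolus and assembly loci 1 was higher, and of 22 initiation factor loci 1 was higher. Of 5 elongation factor loci 1 was higher, that of eef-1G, which went from a mean of 520 to one of 667 (log2 difference 0.36, SE 0.08, n = 3 each, limma adjusted p = 0.00251).

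Whole-animal libraries of other stages listed only WAGO loci and hence only rpl-11.2. Its 22G-RNA signal was 3.22 in wild type and 4.49 in henn-1 embryos, 18.7 and 13.5 in L4 larvae, and 13.6 and 12.3 in gravid adults. With 1 library each there is no replicate check. The sum of all WAGO loci in henn-1 libraries was 72.6%, 62.4% and 71.3% of that in wild type at the 3 stages. The embryo values of rpl-11.2 were the lowest of the 3 stages, and 1 library each cannot establish the direction of their difference.

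In oxidized libraries the CSR-1 class loci of these genes were lower and rpl-11.2 was not. In the wild type background all 14 CSR-1 class loci were lower in oxidized libraries and no locus was called higher, beside 42.9% of all 12383 tested features called lower and 34.9% called higher. Most of the 4322 features called higher were piRNAs, 4176 of them. Of 3376 tested CSR-1 class loci, 3092 were called lower. The median log2 difference, oxidized minus untreated, was -2.03 over the 15 loci, -2.37 over the CSR-1 class and -0.32 over all tested features. In rde-1 animals 13 of the 15 were lower and 1 was higher, beside 26% of all 12034 tested features called lower and 31.1% called higher. There too most features called higher were piRNAs, 3520 of 3738. The median of the 15 loci in rde-1 animals was -1.34, against -1.41 over the CSR-1 class, of which 2294 of 3404 loci were lower. With libraries scaled to the summed CSR-1 class, 1 of the 15 was lower and 1 higher in wild type and 0 lower and 1 higher in rde-1 animals, with medians of -0.15 and -0.16, so the falls are relative to the whole table and not to the class. That scaling moved the median of all tested features from -0.32 to 1.72 in wild type and from 0.03 to 1.28 in rde-1 animals. Under it, 54.9% of all tested features were called higher and 5.53% lower in wild type, and 46.3% and 1.39% in rde-1 animals. Of WAGO loci, the class of rpl-11.2, 66.7% were called higher in wild type and 53.6% in rde-1 animals.

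The largest fall was at rpl-30, whose signal was 43.2, 52.6 and 67.5 in untreated and 5.32, 0 and 0 in oxidized wild type libraries. These were 48, 57 and 92 recovered reads before and 3, 0 and 0 after, so the fitted log2 difference of -4.88 (limma adjusted p = 0.00111) rests on values near the floor. At rps-16 the signal went from 212, 230 and 260 to 60.3, 42.4 and 5.45, a log2 difference of -3.18 (SE 0.75, limma adjusted p = 0.00505). At rpl-9 it went from 244, 281 and 296 to 69.1, 64.1 and 38.9, with a log2 difference of -2.27 (SE 0.27, limma adjusted p = 0.000134). At rps-2 it went from 691, 616 and 759 to 250, 144 and 108, a log2 difference of -2.12 (SE 0.29, limma adjusted p = 0.000272). At rps-7 it went from 143, 164 and 183 to 44.3, 26.9 and 39.7, a log2 difference of -2.14 (limma adjusted p = 0.000306). The rpl-5 and rps-3 loci fell by 2.04 and 1.78 on the log2 scale (limma adjusted p = 0.00164 and 0.00175). In each of the 14 loci every oxidized library was below every untreated one, as in 93.8% of the tested CSR-1 class and 45.4% of all tested features; 36.7% of all features were higher without overlap. Oxidized wild type library 1 was the least reduced, with a median of -1.21 over the 14 loci against -2.34 and -2.51 in libraries 2 and 3. It was also the shallowest of the 6, with 6470120 reads. The smallest fall was that of rpl-13, from 270, 318 and 293 to 145, 118 and 53.0 (-1.59, limma adjusted p = 0.00383).

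In rde-1 animals rpl-30 again had the largest fall, from 40.8, 58.3 and 77.9 to 22.2, 0 and 10.3, a log2 difference of -3.18 (SE 1.13, limma adjusted p = 0.0382). That call was lost without the filter (limma adjusted p = 0.0602), by edgeR (adjusted p = 0.0779), with scaling to the CSR-1 class (limma adjusted p = 0.149) and without any 1 of the 3 untreated libraries (limma adjusted p 0.0695 to 0.132). At rps-3A, whose protein contacts initiation factors in mammals, the signal went from 120, 99.7 and 136 to 29.97, 38.5 and 23.9, a log2 difference of -1.92 (limma adjusted p = 0.00456). At rpl-10L it went from 209, 270 and 356 to 77.3, 84.1 and 121 (-1.55, limma adjusted p = 0.00364). The rps-16 and rps-19 loci fell by 1.45 and 1.34 on the log2 scale (limma adjusted p = 0.00696 and 0.00784). At rpl-13, which fell least in wild type, it went from 262, 315 and 588 to 128, 142 and 140 (-1.41, limma adjusted p = 0.00597). The only CSR-1 class locus not called was rpl-9, at 251, 167 and 333 before and 125, 121 and 197 after (-0.74, limma adjusted p = 0.085), where untreated and oxidized libraries overlapped. Untreated rde-1 library 3 stood above the others, with a median of 0.42 over the 14 loci against -0.29 and -0.12 in libraries 1 and 2. Without it 5 loci were called lower in place of 13, while the count over the CSR-1 class went from 2294 to 1312 and that over all features from 3123 to 1815. With all libraries, 13 of the 15 loci were lower without overlap and 1, rpl-11.2, higher, beside 32.3% and 36% of all tested features and 77.3% of the CSR-1 class lower. The tables of the 2 backgrounds were normalised separately, and the difference between them was not tested.

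At rpl-11.2 the signal did not fall, unlike that of many loci of its class. Of 2324 tested WAGO loci in the wild type background, 1527 were called lower and 82 higher. In rde-1 animals 551 of 2314 WAGO loci were called lower and 161 higher. In the wild type background the rpl-11.2 signal was 253, 214 and 179 in untreated and 410, 290 and 230 in oxidized libraries, which overlapped. The log2 difference of 0.50 (SE 0.25) did not pass the test (limma adjusted p = 0.0932). It passed by edgeR on the recovered reads (log2 difference 0.71, adjusted p = 0.0293) and with the replicate number as a block (limma adjusted p = 0.0403). In recovered reads it was 281, 232 and 244 before and 231, 281 and 295 after. In rde-1 animals it was 217, 255 and 259 in untreated and 404, 535 and 321 in oxidized libraries. Every oxidized rde-1 library was above every untreated one, and the log2 difference was 0.76 (SE 0.24, limma adjusted p = 0.0266). This call was lost in 5 of the 6 fits that omitted a library, with limma adjusted p up to 0.0839; it held without oxidized library 3. In wild type it passed in 1 such fit, without oxidized library 3 (limma adjusted p = 0.0288).

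**Figure D3:**
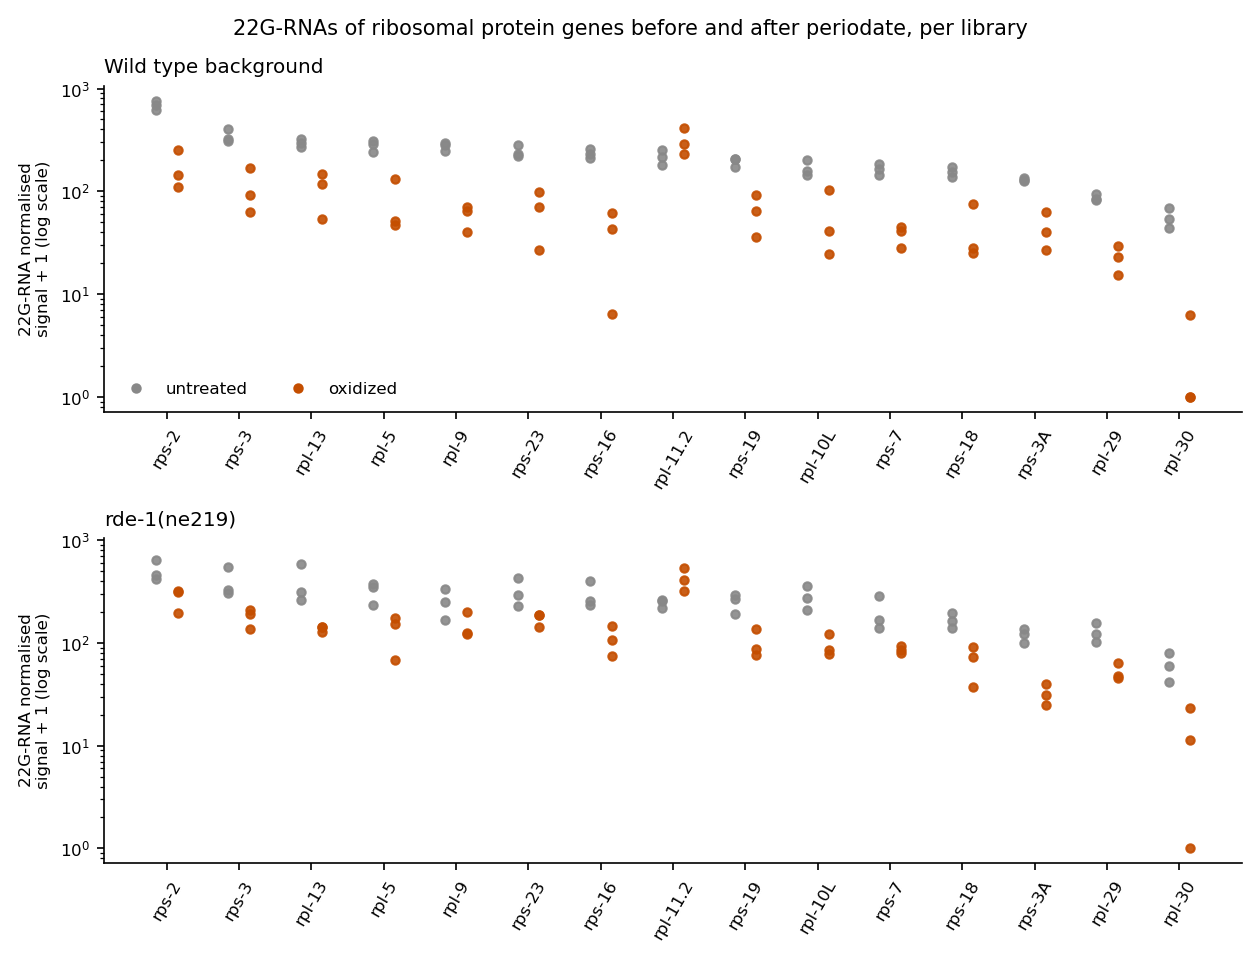
22G-RNA signal plus 1, on a log scale, of the 15 loci in each untreated (grey) and oxidized (orange) library, wild type above and rde-1(ne219) below, in the order of their mean in untreated wild type. At the 14 CSR-1 class loci the oxidized points lie lower, apart from an overlap at rpl-9 in rde-1 animals, and at rpl-11.2 they lie at 230 to 410 and 321 to 535.

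In both immunoprecipitates the CSR-1 class loci of these genes were lower than in input and rpl-11.2 was not. All 14 CSR-1 class loci were lower in the HRDE-1 immunoprecipitate than in its input by at least 2-fold on the log2(signal + 1) scale. None of the 15 was higher by that fold. Over all 6074 loci 10.1% were lower and 4.25% higher, and over the CSR-1 class 14.9% and 0.11%. The ratios of the 14 loci, immunoprecipitate over input, ran from 0.259 to 0.472. Their median was 0.367, against 0.576 over the CSR-1 class and 1.37 over WAGO loci. The lowest log2 ratios were those of rps-3A (18.3 in input and 4.74 in the immunoprecipitate, -1.75), rpl-13 (36.5 and 11.3, -1.61) and rps-7 (24.7 and 7.61, -1.58). The highest were those of rpl-11.2 (18.6 and 21.7, 0.22), rps-3 (35.1 and 16.5, -1.04) and rpl-29 (10.6 and 4.33, -1.12). In this ratio rpl-11.2 lay above 26.7% of WAGO loci.

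On the log2(signal + 1) scale, 8 of 15 loci were at least 2-fold lower in the WAGO-1 immunoprecipitate than in input, and 1 higher. Over all 6074 loci 21.4% were lower and 8.86% higher, and over the CSR-1 class 28.8% and 3.96%. On signal without the added 1, rps-19 and rpl-30 were also lower by more than 2-fold, with ratios of 0.460 and 0.458. The ratios of the 14 CSR-1 class loci ran from 0.321 to 0.789, with a median of 0.448, against 0.680 over the CSR-1 class. The lowest on the log2 scale were rpl-10L, at 26.3 in input and 8.42 in the immunoprecipitate, rpl-5, at 25.4 and 8.13, and rpl-9, at 16.5 and 6.05. The highest were rpl-11.2, rps-2, at 41.2 and 32.5, and rpl-29, at 5.98 and 4.26. At rpl-11.2 the signal was 24.9 in input and 110 in the immunoprecipitate, a ratio of 4.43 that lay above 99.4% of the 2434 WAGO loci, against a class median of 1.298. Each immunoprecipitate and input is 1 library, so these ratios have no replicate check, and their read depth was not recovered.

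**Figure D4:**
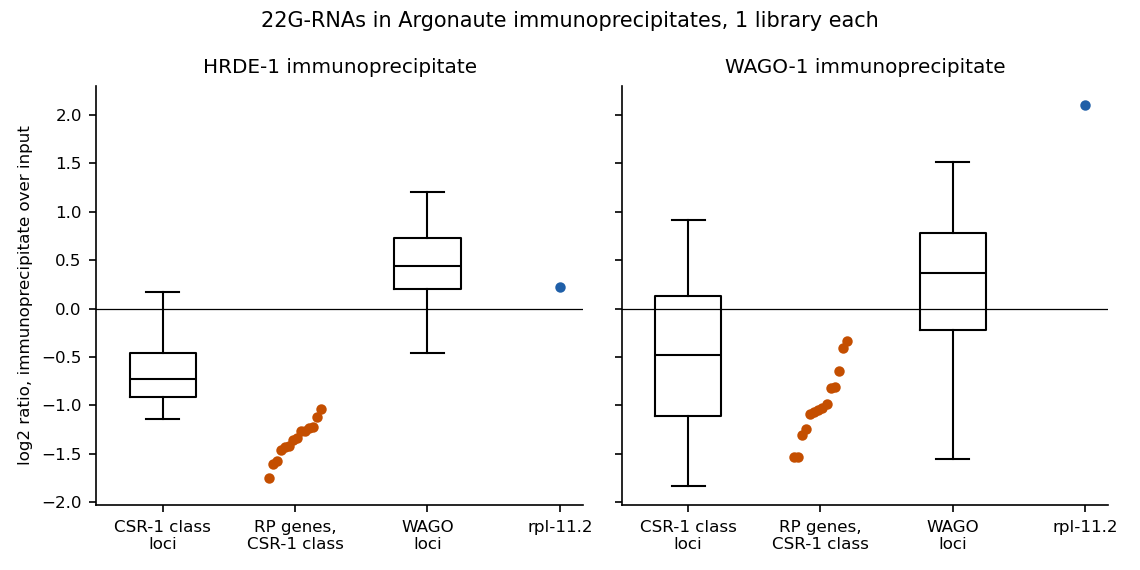
Log2 ratio of immunoprecipitate over input, computed on signal plus 1, for HRDE-1 and WAGO-1. Boxes give the median and quartiles of 3640 CSR-1 class and 2434 WAGO loci with whiskers from the 5th to the 95th percentile, and points are the 14 ribosomal protein genes of the CSR-1 class and rpl-11.2, which stands at 0.22 and 2.103.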

How the data were processed

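Tables were used as deposited. Each holds a normalised signal per gene or locus that the authors made from their reads: DESeq2 1.18.1 is named for gonads and oxidation, and RSEM 1.3.0, STAR 2.5.0a and Trimmomatic 0.35 for gonad mRNA alone, per the submitters' processing notes. Not given in the sources used here are the genome build, the small RNA aligner and the scaling of stage and immunoprecipitate tables. Per the labels' protocols, mRNA was depleted of ribosomal RNA and counted from directional libraries, and small RNAs were treated with polyphosphatase. RefSeq (WBcel235) served for names only.

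Within each table, log2(signal + 1) of features with a mean of at least 10 was fitted with limma 3.58.1 (trend, R 4.3.3), Benjamini-Hochberg over all features, called under 0.05, two-sided. Small RNA reads were recovered as multiples of a step per library (tolerance 0.1 of a read, 100% of values whole) for edgeR 4.0.16 as an alternative; mRNA values did not give whole reads. Fits were tested on simulated data. Exact permutation tests used scipy 1.17.1. Same-numbered gonad libraries did not deviate together (correlations between -0.60 and 0.20). In the oxidation comparisons the same-numbered correlations were small but all above 0, at 0.027 to 0.059 in wild type and 0.013 to 0.21 in rde-1 animals. Numbers were not taken as pairs in the main fits, and pairing in the oxidation libraries is not excluded. A fit with the replicate number as a block is given as an alternative.

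The members and lists were chosen with earlier results of these data known. Genes named are the rpl-11 and rpl-23A paralogs, the WAGO-class member, up to 6 called genes of lowest adjusted p in each direction, otherwise the 3 largest differences, the 3 highest and lowest immunoprecipitate ratios, genes called in both gonad comparisons, and up to 3 genes per list; others (among them rps-21 and the genes beside it, rps-16, rpl-13 and rpl-9 under oxidation, and rps-23, rpl-30 and rps-2 among gonad 22G-RNAs) were chosen after their values were seen. A rule on levels per coding length could not be applied, since coding lengths were not used here.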

Additional observations from a re-analysis of the deposited data

Results flagged for a closer look

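Small RNAs of one ribosomal protein gene also appeared outside the CSR-1 and WAGO classes from which the 15 loci were taken. The oxidation tables list rpl-23A.2 under the ALG-3/4 class, and its row held 18, 14 and 23 recovered reads in the untreated wild type libraries, above the 3 reads that a count of 0 allows, with a mean normalised signal of 15.3 ± 2.12 (SD, n = 3). In the oxidized wild type libraries it held 0, 0 and 19 reads. In rde-1 animals it held 5, 1 and 6 reads before and 14, 0 and 0 after oxidation. The rows of rps-13 in the ERGO-1 class and of rps-18 and rpsa-1 in the ALG-3/4 class did not exceed 3 reads in every untreated library of either table.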

How the results depend on the processing

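Of the mRNA results, the count called higher, 2 in the report, was 12 with library totals, 7 without both sperm-rich libraries, 1 when rpl-11.2 is set aside (added after seeing the data) and 1 to 21 when 1 library was left out; the count lower, 4, was 1 without both sperm-rich libraries and 0 to 4 when 1 was left out. For gonad 22G-RNAs, the count lower, 1, was 10 with TMM factors, 2 with library totals, 8 with edgeR and 0 to 1 when 1 library was left out; the count higher was 0 to 1, and the median of -0.05 was -0.30, -0.13 and -0.21 in the first 3 settings. With TMM factors rps-7 reversed to -0.25. For oxidation in wild type, the count higher, 0, was 1 with scaling to the CSR-1 class, 1 with the replicate block, 1 with edgeR and 0 to 1 when 1 library was left out, the locus being rpl-11.2 each time (adjusted p = 0.0403 with the block and 0.0293 with edgeR). Scaling to the CSR-1 class left 1 lower and a median of -0.15, and reversed rpl-13 (0.30), rps-3A (0.21), rps-3 (0.11), rps-19 (0.17) and rpl-10L (0.046). In rde-1 animals the count higher, 1, was 0 with library totals and 0 to 1 when 1 library was left out; the count lower, 13, was 0 with scaling to the CSR-1 class and 5 to 14 when 1 was left out; the median under that scaling was -0.16, and rps-23 (0.34), rps-2 (0.32), rps-3 (0.10) and rps-7 (0.048) reversed. The median immunoprecipitate ratios (log2), -1.34 for HRDE-1 and -1.03 for WAGO-1, were -1.08 and -0.67 with a pseudocount of 5 and -1.46 and -1.31 with library totals. The median 22G-RNA over mRNA ratio (log2), -7.55, was -7.37 in henn-1 gonads, a setting added after seeing the data. The cause of these changes was not tested.

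The replicate block moved the calls only as stated for wild type and, in rde-1 animals, to 14 lower; the gonad calls under the block numbered 2 higher and 4 lower for mRNA and 0 and 1 for 22G-RNAs. Correlations per kilobase and a count test of mRNA reads were not run, for want of coding lengths and of whole reads. Depth limits rpl-30 after oxidation, at 0 to 3 reads in wild type libraries.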
